A study of Mus musculus with 12 samples.

Results

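The expression of 42 genes that encode regulators of chromatin and DNA methylation was examined in tumors that arose in LSL-MYCN;hGFAP-Cre mice, 9 of them in the pancreas and 3 at the pituitary gland. The genes were chosen by name, and each was represented by 1 probe set, the one with the highest mean signal over the 12 tumors among those that the platform annotation assigns to that gene alone. All 42 genes could be represented, out of 18193 genes on the array. All tumors share the LSL-MYCN and hGFAP-Cre transgenes. In these mice, Cre under the human GFAP promoter removes a stop cassette and thereby switches on a MYCN transgene, so that MYCN is expressed only in cells in which that promoter has been active, and in their progeny. The mice had a mixed FvB/129 SvJ x B6 background, and their ages were not given for the arrays. The tumors were untreated. Tumors 6, 7 and 8, here called pituitary, carry the brain as their tissue label, and their location at the pituitary gland is taken from the paper. Pancreatic tumors are numbered 1 to 5 and 9 to 12. No normal tissue was analysed here, and whether tumors of both sites came from the same mouse is not given, so that each tumor was counted as an independent sample.

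The proteins encoded by these genes set how tightly DNA is packed and which genes can be read. Polycomb complexes silence genes by modifying histones, SWI/SNF and CHD complexes move nucleosomes, histone methyltransferases, demethylases, acetyltransferases and deacetylases write and erase histone marks, and DNA methyltransferases and TET enzymes add and oxidize methyl groups on cytosine. In human pancreatic neuroendocrine tumors, genes of chromatin regulation are recurrently mutated, and several enzymes of this group are transcribed mainly in dividing cells.

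Signals were compared on the log2 scale as deposited, with 1 array per tumor. Pearson's r over all probe sets lay between 0.803 and 0.985 among the pancreatic tumors. Arrays of pancreatic tumors 10, 11 and 12 had the lowest mean signals (5.97 to 5.98), below the 6.06 to 6.10 measured for the other 9. Of 8 endocrine pancreas genes, 6 were called higher in pancreatic tumors (list mean 9.12 to 12.35) than in pituitary tumors (6.40 to 7.49), with pancreatic tumor 2 at the low end. All 6 measured genes of the anterior pituitary were lower in the pancreatic tumors (list mean 5.10 to 6.06) than in the pituitary tumors (10.63 to 12.19). Markers of other cell types differed in part. Limma called 3 of 8 glial and 2 of 6 neuronal genes lower in the pancreatic tumors, and 1 of 6 acinar genes higher. The glial gene Mbp differed by only 0.07 (limma adjusted p = 0.96). The mean of 8 glial genes was 5.63 to 6.55 in the pancreatic tumors, against 10.37, 6.97 and 9.92 in pituitary tumors 6, 7 and 8. The mean of 6 neuronal genes was 5.54 to 8.31 in the pancreatic tumors, against 11.16, 7.97 and 11.19 in the same 3 pituitary tumors. The neuronal mean of tumor 7 thus lay within the pancreatic range. Acinar genes stood at 6.18 to 11.51 in the pancreatic tumors, highest in tumors 3 and 4, and at 5.55 to 5.88 in the pituitary tumors. The leukocyte means overlapped (pancreatic 7.69 to 9.93, pituitary 7.48 to 9.03). The part of these other cells in the values below was not tested, and in bulk tissue fewer cells of a type and less RNA per cell cannot be told apart.

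The first comparison asked whether the chromatin regulators differed between the sites of tumor formation. None did by the test used: 0 of the 42 genes were called by limma at a Benjamini-Hochberg adjusted p of 0.05, over all 45037 probe sets, of which 4.63% were called (1.18% higher and 3.45% lower in pancreatic tumors). Adjusted p-values of the members lay between 0.149 and 0.975. At an unadjusted p of 0.05, limma counted 3 members (7.14%), namely Ring1, Bmi1 and Rnf2, against 19.4% of all probe sets. With an unmoderated variance in place of limma's, 0 members were called and 2 stood below 0.05 before adjustment. The groups failed to overlap for 1 member (2.38%), Ring1, against 7.88% of all probe sets. Before any threshold, 17 members were higher and 25 lower in pancreatic than in pituitary tumors, with a median difference of -0.14, against -0.05 over the 12218 genes above the median probe set.

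**Figure D1:**
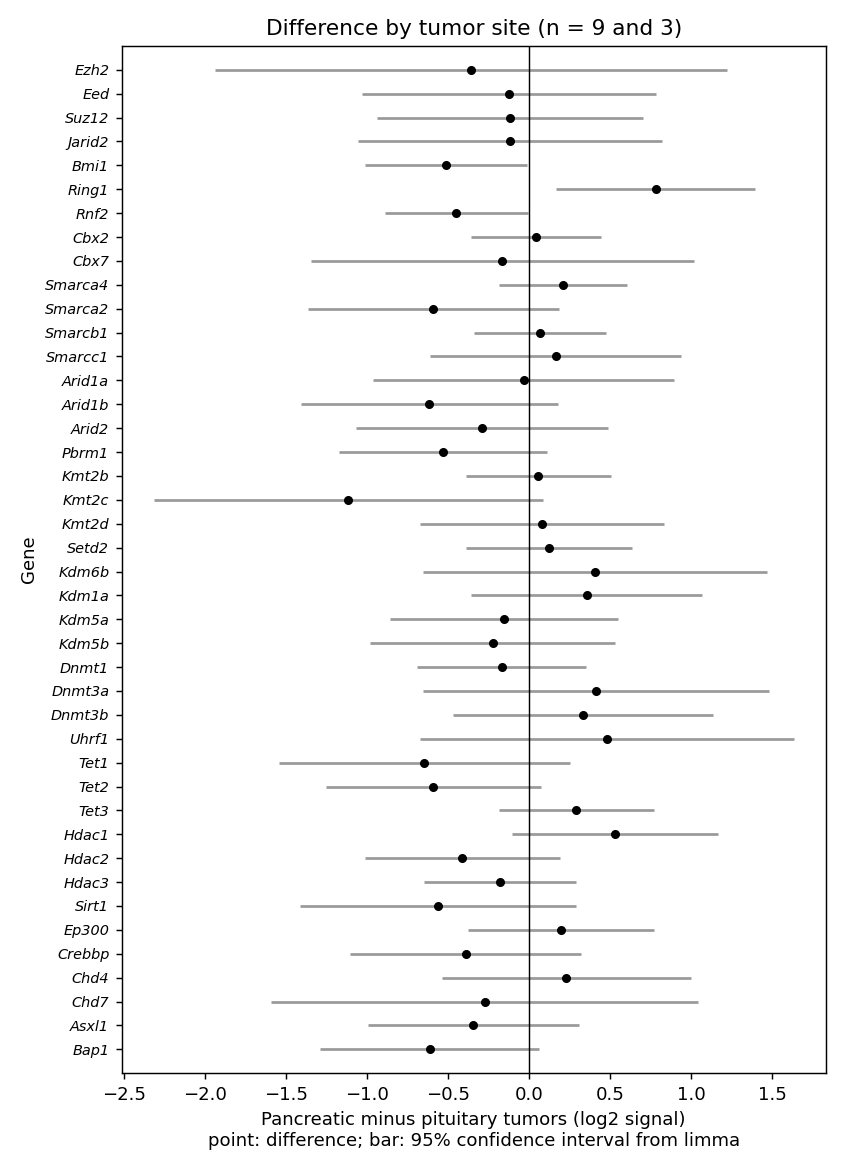
Difference in log2 signal, pancreatic minus pituitary tumors, with its 95% confidence interval for each of the 42 members, ordered by role. The differences run from -1.12 for Kmt2c to 0.78 for Ring1, and no member passed the adjusted threshold.

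The intervals show what these 12 arrays could resolve. For 18 members the 95% interval lay within a log2 difference of 1 in either direction, and for 24 it reached or passed 1. The median distance from the difference to the end of its interval was 0.73, with a range of 0.39 to 1.58. With this number of arrays a 2-fold change thus lay inside or at the edge of the interval of 24 members, and the absence of calls does not show that their levels were alike at both sites.

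The Polycomb repressive complex PRC2 methylates histone H3 at silenced genes. Its catalytic subunit Ezh2 had the widest spread of all members among the pancreatic tumors, with a lowest log2 signal of 4.64, a median of 5.60 and a highest of 8.80. Pituitary tumors had 6.38, 6.18 and 6.28. The highest pancreatic value was that of tumor 2, followed by 6.96 in tumor 3, and tumors 11 and 12 were lowest at 4.64 each. The pituitary values lay inside the pancreatic range, and the difference was -0.36 (95% interval -1.94 to 1.22, limma adjusted p = 0.82). In 4 tumors the Ezh2 signal stood at or below the median of its array, so that its low values are near the dim end of the measured range.

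Eed, the subunit through which PRC2 reads its own mark, had pancreatic values of 6.64 at the lowest, 8.51 at the median and 9.13 at the highest. In pituitary tumors Eed had 8.25, 8.47 and 8.57. Pancreatic tumor 5 stood alone at 6.64, since the next value was 7.98 in tumor 10, and all other tumors of both sites overlapped. The difference was -0.13 (limma adjusted p = 0.90). Suz12, a scaffold of the complex, had 8.92 at the lowest, 9.69 at the median and 10.65 at the highest in the pancreatic tumors, against 9.36, 10.05 and 10.11 in the pituitary tumors. Jarid2, an accessory subunit that helps to bring PRC2 to its targets, ranged from 7.86 in tumor 2 to 10.44 in tumor 5 among the pancreatic tumors, against 8.61, 9.13 and 9.20 in the pituitary tumors. On the representative probe sets, tumor 5 was thus lowest for Eed and highest for Suz12 and Jarid2 among the pancreatic tumors. Tumor 2 was highest for Ezh2 and Eed and lowest for Jarid2. A further probe set of Suz12 (7.11) and a further probe set of Jarid2 (5.77) had their lowest pancreatic value in tumor 5. Dimmer further Suz12 probe sets were highest there (7.36, 6.58 and 6.65). All 4 PRC2 members had a small negative difference between the sites, and 0 were called. Without pancreatic tumors 10, 11 and 12 the sign turned for Ezh2 (0.18), Suz12 (0.24) and Jarid2 (0.05).

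**Figure D2:**
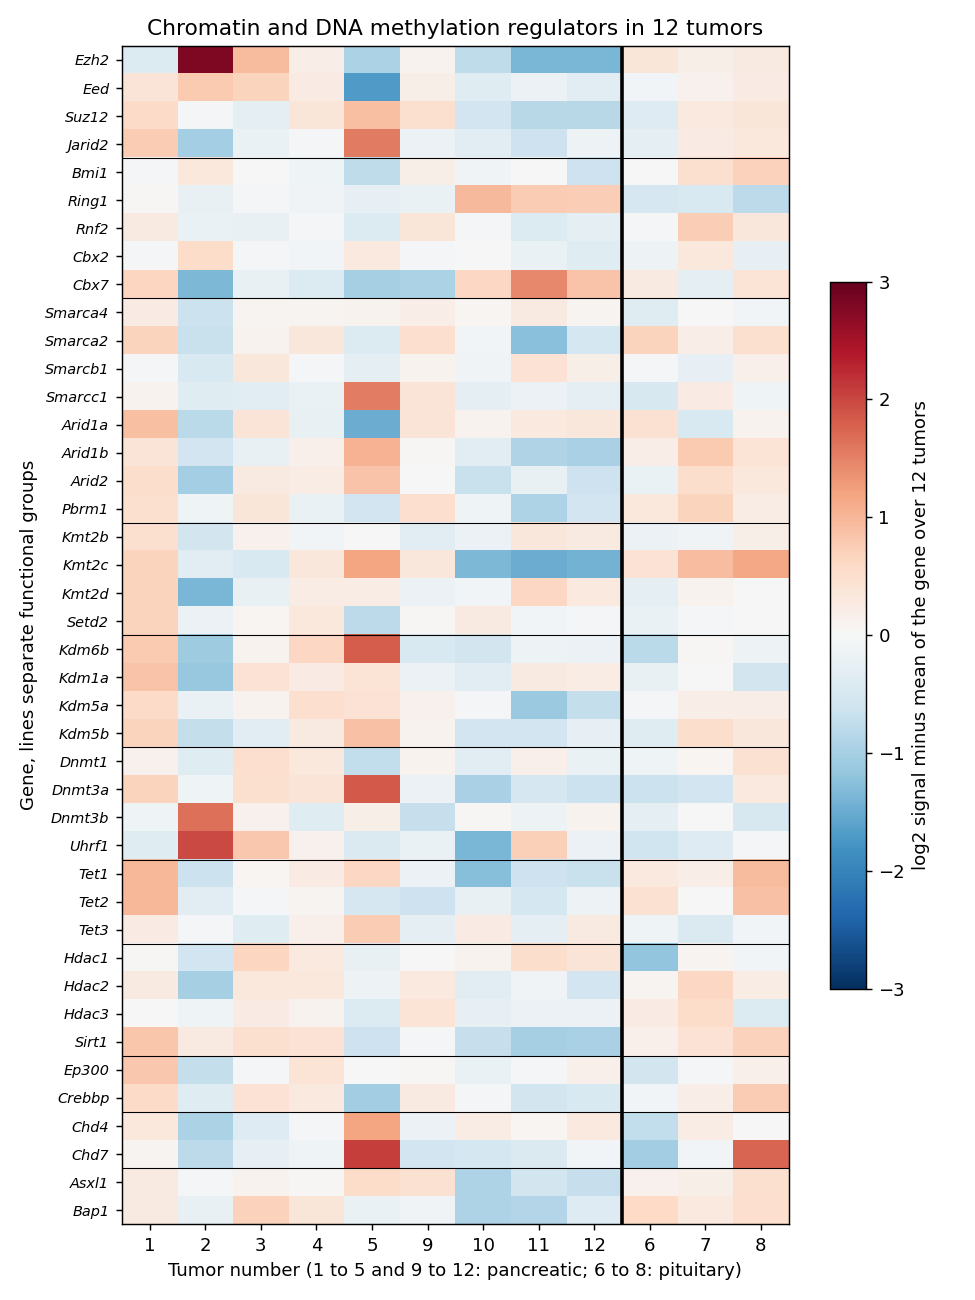
Log2 signal of each member minus its mean over the 12 tumors, by tumor, with the 9 pancreatic tumors left of the 3 pituitary tumors and members grouped by role. Pancreatic tumor 2 stands out by its high Ezh2 and Uhrf1, and tumor 5 by its high Jarid2, Smarcc1 and Chd7 beside a low Eed.

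PRC1 binds marked chromatin and ubiquitinates histone H2A. Ring1, one of its ubiquitin ligases, had the highest positive difference of all members and was the only member whose groups did not overlap on its representative probe set. Its log2 signal was 7.16 at the lowest, 7.37 at the median and 8.37 at the highest in the pancreatic tumors. In pituitary tumors it was 6.88, 6.94 and 6.59, so that all 9 pancreatic tumors stood above all 3 pituitary tumors. The means were 7.59 ± 0.49 in the pancreatic tumors (SD, n = 9) and 6.81 ± 0.19 in the pituitary tumors (SD, n = 3), which gave a difference of 0.78 (SE 0.28, 95% interval 0.16 to 1.40). In the fit over all probe sets this did not pass the threshold (limma adjusted p = 0.149). Within the pancreas, tumors 10, 11 and 12 had 8.37, 8.15 and 8.14, and the other 6 tumors lay between 7.16 and 7.43. Without tumors 10, 11 and 12 the difference was 0.46 (limma adjusted p = 0.123).

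The promoter of Ring1 is shown because no other member separated the sites by its representative probe set, and that of Uhrf1 because its signal changed most steeply with the proliferation score described further on. Both are the 250 bases before the transcription start in RefSeq on build GRCm38.p6, written 5′ to 3′ on the strand of the gene. Ring1 lies on the minus strand, with this stretch at chr17:34024681-34024930, and Uhrf1 on the plus strand, with its stretch at chr17:56303087-56303336. Capitals mark a match to an E2F motif, which was found only in the Uhrf1 stretch and ends 42 bases before the start. The window at a further Uhrf1 start in the table held no match.
Ring1: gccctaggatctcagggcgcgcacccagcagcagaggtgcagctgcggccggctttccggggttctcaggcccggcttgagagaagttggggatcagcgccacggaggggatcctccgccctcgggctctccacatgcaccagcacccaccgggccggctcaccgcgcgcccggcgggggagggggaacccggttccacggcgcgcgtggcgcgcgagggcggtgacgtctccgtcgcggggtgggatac
Uhrf1: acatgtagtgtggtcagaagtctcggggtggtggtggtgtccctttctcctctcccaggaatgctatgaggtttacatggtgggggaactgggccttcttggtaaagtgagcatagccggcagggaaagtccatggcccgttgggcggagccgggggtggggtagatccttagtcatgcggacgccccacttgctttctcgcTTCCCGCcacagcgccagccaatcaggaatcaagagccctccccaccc

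The other PRC1 members overlapped between the sites. Bmi1, which partners the ligases, was between 9.02 and 10.09 in the pancreatic tumors, with a median of 9.71, against 9.76, 10.26 and 10.46 in the pituitary tumors. Pituitary tumors 7 and 8 stood above every pancreatic tumor, and the difference was -0.51 (95% interval -1.01 to -0.01, limma adjusted p = 0.244). Rnf2, the other ubiquitin ligase of PRC1, was between 8.70 and 9.48 in the pancreatic tumors, against 9.06, 9.84 and 9.45 in the pituitary tumors, a difference of -0.45 (limma adjusted p = 0.247). Ring1 and Rnf2 encode closely related ligases and had differences of opposite sign. For Rnf2 a further probe set, at a low mean signal of 4.39, was higher in the pancreatic tumors without overlap by 0.39 (limma adjusted p = 0.0846), so that its probe sets did not give 1 direction. Cbx7, a chromodomain subunit that binds the PRC2 mark, was at 5.64 in tumor 2, 6.75 at the median and 8.43 in tumor 11 among the pancreatic tumors, against 7.25, 6.68 and 7.39 in the pituitary tumors. Its difference was -0.17 (limma adjusted p = 0.89), and the mean of all its probe sets gave 0.37. Cbx2, a related subunit, had the narrowest spread of all members among the pancreatic tumors, with an SD of 0.26 (n = 9) and values from 5.61 to 6.51.

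SWI/SNF complexes use ATP to slide or evict nucleosomes. On its representative probe set Smarca4, 1 of their ATPases, lay at 10.03 to 10.25 in 8 of the 9 pancreatic tumors and at 9.33 in tumor 2. Pituitary tumors had 9.61, 9.96 and 9.90, all below the 8 and above tumor 2. The difference was 0.21 (95% interval -0.18 to 0.60, limma adjusted p = 0.56). The further Smarca4 probe set was not as even, with 10.37 in tumor 5 against 7.68 to 8.58 in the other pancreatic tumors. Tumor 2 was again lowest on it. Smarcc1, a core subunit, was between 9.46 and 10.20 in all pancreatic tumors except tumor 5, which had 11.35, against 9.34, 10.07 and 9.68 in the pituitary tumors. Its difference was 0.16 (limma adjusted p = 0.84). Smarcb1, a core subunit lost in rhabdoid tumors, differed by only 0.07 (95% interval -0.34 to 0.47).

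Negative differences were measured for Smarca2, the alternative ATPase (-0.59), for the DNA-binding subunits Arid1a (-0.04), Arid1b (-0.62) and Arid2 (-0.29), and for the bromodomain subunit Pbrm1 (-0.53). Pbrm1 was between 9.03 and 10.45 in the pancreatic tumors, against 10.27, 10.62 and 10.17 in the pituitary tumors. Arid1a was lowest in pancreatic tumor 5 at 7.81, where Arid1b and Arid2 were at their highest, 10.50 and 10.72. Of the 8 SWI/SNF members 0 were called, with adjusted p-values from 0.350 to 0.975 by limma.

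Among the histone methyltransferases, Kmt2c, which methylates histone H3 at enhancers, had the greatest difference of all members. It was 7.60 at the lowest, 8.77 at the median and 10.28 at the highest in the pancreatic tumors. Pituitary tumors had 9.54, 10.01 and 10.24. Among the pancreatic tumors it was 7.73, 7.60 and 7.67 in tumors 10, 11 and 12 and 8.63 to 10.28 in the other 6, of which tumor 1 lay within the pituitary range and tumor 5 above it. The means were 8.81 ± 0.99 in the pancreatic tumors (SD, n = 9) and 9.93 ± 0.36 in the pituitary tumors (SD, n = 3), a difference of -1.12 (95% interval -2.32 to 0.085, limma adjusted p = 0.294). Without tumors 10, 11 and 12 it was -0.54 (limma adjusted p = 0.509).

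Kmt2d, the paralog of Kmt2c, was between 8.95 and 9.83 in all pancreatic tumors except tumor 2, which had 7.79. Pituitary tumors had 8.89, 9.27 and 9.16. The difference was 0.08 (95% interval -0.68 to 0.83, limma adjusted p = 0.93), and tumors 10, 11 and 12 did not stand low for this gene, with 9.09, 9.79 and 9.45. Kmt2b, which acts at promoters, and Setd2, which methylates histone H3 along transcribed genes, differed by 0.05 and 0.12.

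None of the 4 demethylases was called. Kdm6b, which removes the PRC2 mark, ranged from 8.25 in tumor 2 to 11.12 in tumor 5 among the pancreatic tumors, against 8.50, 9.36 and 9.17 in the pituitary tumors, a difference of 0.41 (limma adjusted p = 0.68). Kdm1a, which removes activating methyl groups, differed by 0.35, and Kdm5a and Kdm5b by -0.16 and -0.23. Adjusted p-values of these 4 genes were 0.590 to 0.825 by limma.

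DNA methylation is kept up at replication by Dnmt1 with its recruiter Uhrf1 and is set anew by Dnmt3a and Dnmt3b. Uhrf1 was 5.44 at the lowest, 6.63 at the median and 8.80 at the highest in the pancreatic tumors, against 6.21, 6.42 and 6.75 in the pituitary tumors. Tumor 2 was highest and tumor 10 lowest, and the pituitary values lay inside the pancreatic range (difference 0.48, 95% interval -0.68 to 1.63, limma adjusted p = 0.66). Dnmt1 was far more even, with pancreatic values of 8.46 to 9.70 against 9.06, 9.25 and 9.65 in the pituitary tumors, and differed by -0.17.

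Dnmt3b was between 5.81 and 6.68 in all pancreatic tumors except tumor 2, which had 8.15. Pituitary tumors had 6.22, 6.53 and 6.02, and the difference was 0.33 (limma adjusted p = 0.66). Dnmt3a was highest in tumor 5 at 10.26 and lowest in tumors 10, 11 and 12, at 7.45, 7.92 and 7.79, among the pancreatic tumors, against 7.79, 7.86 and 8.71 in the pituitary tumors. Its difference was 0.41 (limma adjusted p = 0.68). On the representative probe sets, high signals of the genes for new methylation thus occurred in different tumors, Dnmt3b in tumor 2 and Dnmt3a in tumor 5. Further Dnmt3a probe sets had their highest pancreatic value in tumor 1 (8.61 and 8.79), tumor 2 (7.61) or again tumor 5 (9.67).

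TET enzymes oxidize methylated cytosine. Tet2 was 7.36 at the lowest, 7.75 at the median and 8.97 at the highest in the pancreatic tumors, against 8.43, 7.96 and 8.86 in the pituitary tumors. Tumor 1 held the highest value, and the next pancreatic tumor had 8.04, below pituitary tumors 6 and 8. The difference was -0.59 (limma adjusted p = 0.313), and without tumor 1 the adjusted p was 0.0717. Tet1 differed by -0.65 and Tet3 by 0.29, with Tet1 at or below the array median in 4 tumors.

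**Figure D3:**
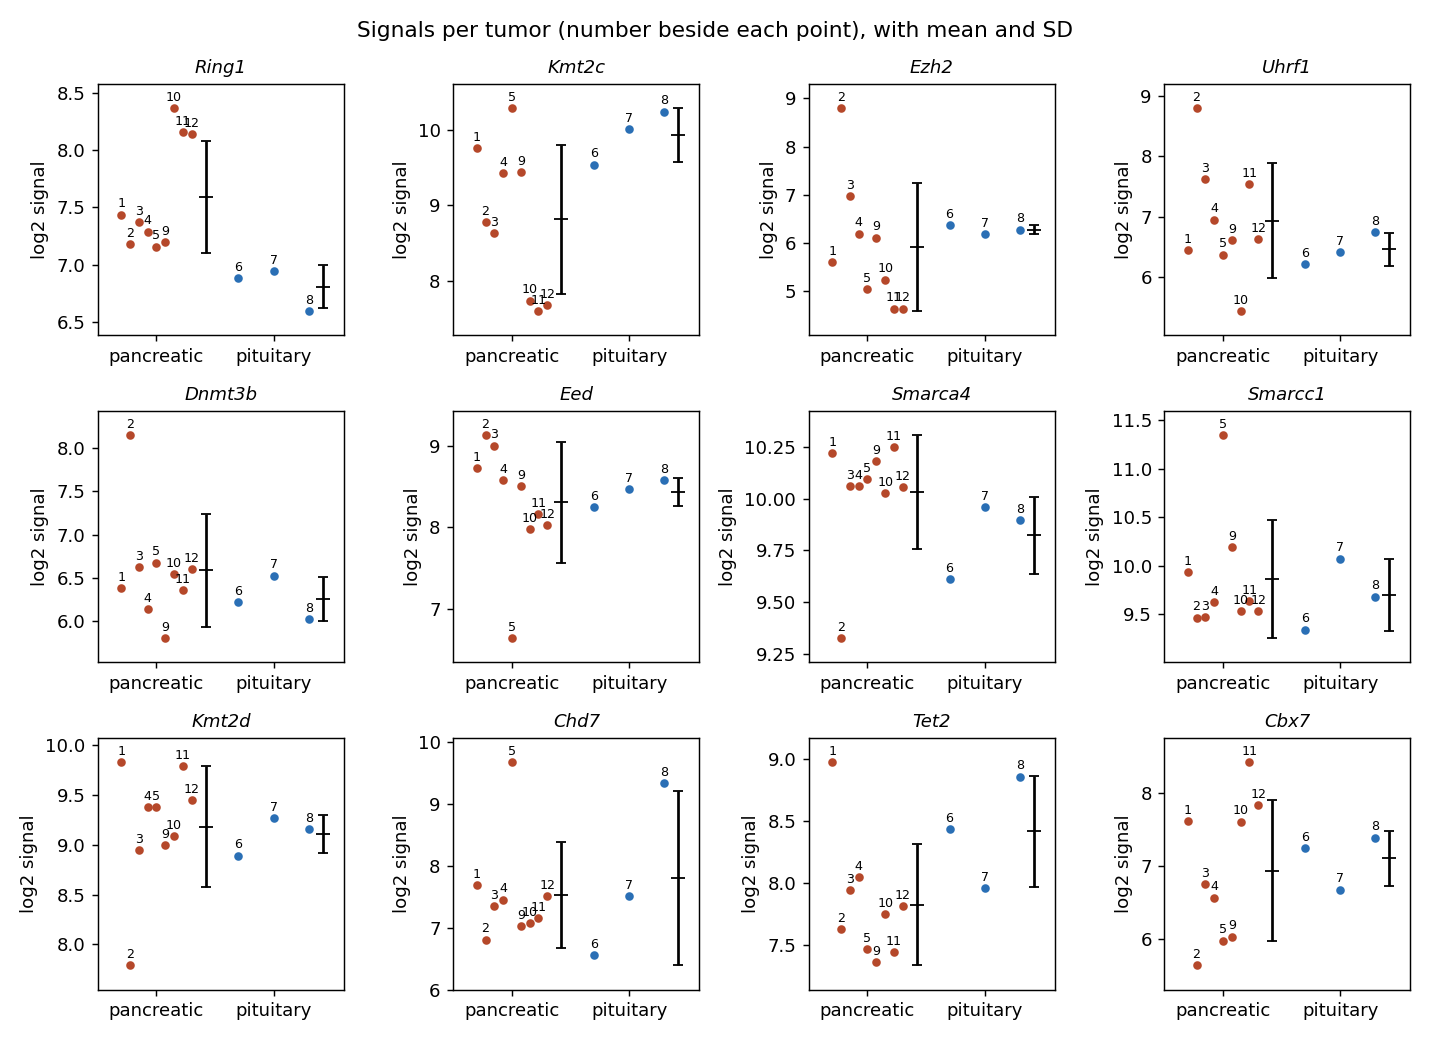
Log2 signal of 12 members in each tumor, pancreatic tumors left of pituitary tumors, with the mean and SD of each site beside the points (n = 9 and 3). Ring1 shows 9 pancreatic tumors above all 3 pituitary tumors, and Smarca4, Dnmt3b and Chd7 each show 1 pancreatic tumor far from the others.

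Deacetylases remove the acetyl groups that Ep300 and Crebbp add. Hdac1 was between 8.88 and 10.10 in the pancreatic tumors, against 8.27, 9.54 and 9.36 in the pituitary tumors. The difference of 0.53 (limma adjusted p = 0.348) rested on pituitary tumor 6, since it was 0.14 without that tumor. Under array weights, which give less weight to arrays that deviate from their group, the difference was 0.88 (limma adjusted p = 0.0479) and Hdac1 was the 1 member called. Array weights also raised the calls over all 45037 probe sets, from 533 to 1849 higher and from 1552 to 3179 lower. Hdac2 and Hdac3 differed by -0.41 and -0.18, and the NAD-dependent Sirt1 by -0.56. Ep300 differed by 0.20 and Crebbp by -0.39.

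Of the CHD remodelers, Chd4, the ATPase of the NuRD complex, had pancreatic values of 9.24 to 11.37 against 9.47, 10.43 and 10.17 in the pituitary tumors, and differed by 0.23. Chd7, which is mutated in human CHARGE syndrome, was between 6.81 and 7.69 in all pancreatic tumors except tumor 5, which had 9.67. Pituitary tumors had 6.56, 7.51 and 9.33, so that a single high tumor was present at each site, and the difference was -0.27 (95% interval -1.59 to 1.04, limma adjusted p = 0.84). Asxl1 and Bap1, partners in a complex that removes ubiquitin from histone H2A, differed by -0.34 and -0.62. Bap1 was 8.73 to 10.36 in the pancreatic tumors, against 10.25, 9.95 and 10.17 in the pituitary tumors (limma adjusted p = 0.301).

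Of 109 probe sets for the 42 genes, 67 were not used above and belong to 32 genes. Among these 0 were called by limma (lowest adjusted p 0.0846), 43 had the sign of the representative probe set and 24 the opposite sign. Besides that of Rnf2, 2 were higher in the pancreatic tumors without overlap, for Cbx7 (1.03, limma adjusted p = 0.369) and for Dnmt3a (0.54, limma adjusted p = 0.0964). Together these are 3 of the 67, a smaller share than the 7.88% of all probe sets whose groups did not overlap.

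The second question was how the members varied among the pancreatic tumors. Their SD over the 9 tumors had a median of 0.57, against 0.54 over the 12218 genes above the median probe set, a group that includes all members. The highest and lowest values were unevenly distributed among the tumors. Tumor 5 held the highest pancreatic value of 13 members (31.0%), whereas it held that of 11.3% of the 12218 genes. These 13 were Suz12, Jarid2, Smarcc1, Arid1b, Arid2, Kmt2c, Kdm6b, Kdm5b, Dnmt3a, Tet3, Chd4, Chd7 and Asxl1. The count rests on the representative probe sets. Some further probe sets were instead lowest in tumor 5, for Suz12 (7.11), Jarid2 (5.77), Arid2 (6.37) and Kdm5b (5.83). Others were again highest there, for Kmt2c (9.47), Kdm6b (9.53), Chd4 (10.90 and 10.73) and Chd7 (8.21). Tumor 5 also held the lowest value of 8 members (19.0%, against 25.9% of the genes), among them Eed, Dnmt1, Arid1a and Crebbp.

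Tumor 1 held the highest value of 12 members (28.6%, against 18.2% of the genes), among them Tet1, Tet2, Kdm1a, Ep300 and Crebbp, and the lowest of 0. Tumor 2 held the lowest value of 16 members (38.1%, against 25.9% of the genes), including Smarca4, Kmt2d, Kdm1a, Hdac1, Hdac2, Chd4 and Chd7. It held the highest value of 6 members (14.3%, against 22.1% of the genes), Ezh2, Eed, Bmi1, Cbx2, Dnmt3b and Uhrf1. Tumor 2 also had the lowest mean of the endocrine pancreas genes (9.12, against 11.23 to 12.35 in the other pancreatic tumors) and of the neuronal genes (5.54, against 6.92 to 8.31). Its glial mean was the highest of the pancreatic tumors (6.55, against 5.63 to 6.03), and its leukocyte mean of 9.02 was exceeded by that of tumor 10 alone (9.93). Among the glial genes, Slc1a2, Aqp4, Gfap and Olig1 were highest in tumor 2 among the pancreatic tumors. Mbp was lowest there (6.01, against 9.05 to 9.84 in the others), and Slc1a3, Aldoc and Mag were neither. The part of cell composition in the chromatin values of tumor 2 was not tested. These shares describe the tumors, rest on the representative probe sets and were not tested. Some further probe sets had their highest pancreatic value elsewhere, for Tet2 (9.15 in tumor 5), Kdm1a (10.04 in tumor 11) and Bmi1 (9.98 in tumor 4). Others were again highest in tumor 1, for Tet1 (7.28) and Crebbp (9.74), or lowest in tumor 2, for Smarca4 (7.68) and Kdm1a (8.29). A further Kmt2d probe set was not lowest in tumor 2 (6.53).

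Tumors 10, 11 and 12 all stood below the other 6 pancreatic tumors for 6 members (14.3%), against 8.68% of the 12218 genes. These were Suz12, Kmt2c, Dnmt3a, Sirt1, Asxl1 and Bap1. Sirt1 had 7.23, 6.93 and 6.94 in tumors 10, 11 and 12, against 7.30 to 8.74 in the other pancreatic tumors. For 1 member (2.38%), Ring1, the 3 tumors all stood above, against 5.43% of the genes. These counts rest on the representative probe sets. On a further Arid1a probe set the 3 tumors had 9.33, 9.35 and 9.08, above the other 6 (5.32 to 6.62). On a further Cbx7 probe set they had 5.92, 7.20 and 6.52, above the other 6 (4.31 to 4.86). A further Dnmt3a probe set again placed them below (5.77 to 6.01), while another, and the further Bap1 probe set, did not. The part of the lower mean signal of these 3 arrays in the values was not tested.

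The third comparison related the members to proliferation within the pancreatic tumors. For the score, the log2 signals of 15 proliferation genes that are not members were centred on the mean of the 9 tumors and averaged. It was 1.00 in tumor 3, 0.73 in tumor 2 and 0.60 in tumor 11, near 0 in tumor 12 (0.01), and -1.17 and -1.30 in tumors 10 and 5. Of the 42 slopes of a member on this score, 0 were called by limma (adjusted p 0.240 to 0.983), against 0.156% of 45004 probe sets. At an unadjusted p of 0.05, limma counted 7 members (16.7%), against 10.8% of all probe sets.

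The slope of Uhrf1 was the steepest, at 0.93 log2 units of signal per unit of the score (SE 0.24, 95% interval 0.40 to 1.47, limma adjusted p = 0.24). Without tumors 5 and 10, the farthest in score, it was 1.26, and with Mki67, the gene of the proliferation marker Ki-67, in place of the score it was 0.94. Ezh2 had a slope of similar size, 0.85, with an interval of -0.19 to 1.90 that reached beyond 0, and without tumor 2 it was 0.46. Eed had 0.69 (95% interval 0.22 to 1.15), which was 0.36 without tumor 5, its lowest tumor. The remaining positive slope past the unadjusted threshold was that of Dnmt1, 0.32 (95% interval 0.02 to 0.61), which was 0.20 without tumor 5. Without both tumors 5 and 10 the slopes of Ezh2, Eed and Dnmt1 were 1.47, 0.31 and 0.12. A further Uhrf1 probe set had a slope of 0.48 (limma adjusted p = 0.175), and a further dim Eed probe set, with a mean signal of 3.78, had -0.12.

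Negative slopes past the unadjusted threshold were those of Jarid2 (-0.63), Chd7 (-0.64), Chd4 (-0.57) and Tet3 (-0.37). All 4 genes had their highest pancreatic value in tumor 5, the tumor with the lowest score. Without tumor 5 the slopes were -0.31 for Jarid2, -0.08 for Chd7, -0.40 for Chd4 and -0.28 for Tet3. Without tumor 10 they were -0.99 for Jarid2, -1.05 for Chd7, -0.74 for Chd4 and -0.46 for Tet3, and without both tumors -0.86, -0.40, -0.66 and -0.42 in the same order. The sizes thus depended on which tumor was left out, most of all for Chd7. For Jarid2 they also depended on the probe set, since its other probe sets had slopes of -0.05 and 0.27.

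**Figure D4:**
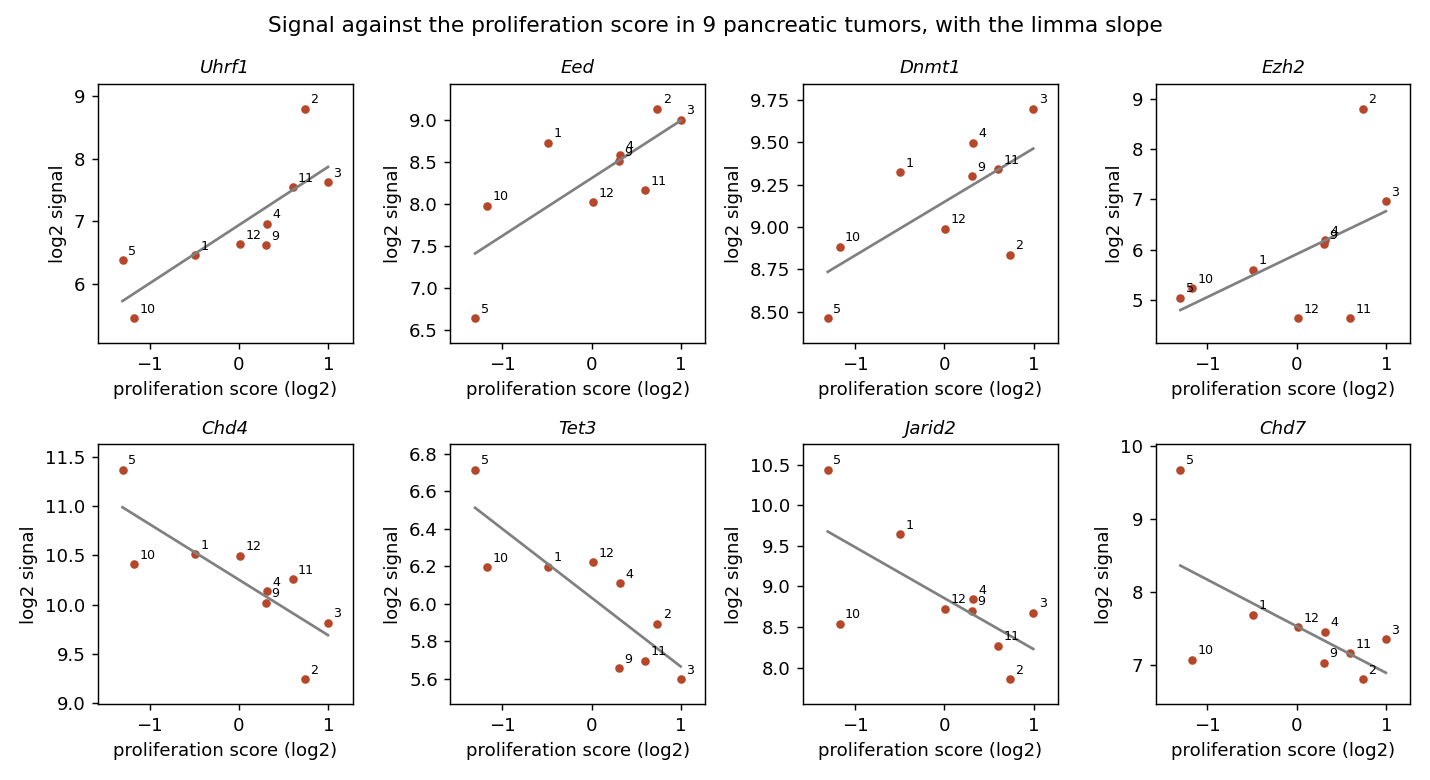
Log2 signal of 8 members against the proliferation score in the 9 pancreatic tumors, with the line fitted by limma and the tumor number beside each point. Uhrf1 and Eed run upward and Jarid2 and Chd4 downward, and none of the slopes passed the adjusted threshold.

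E2F factors drive genes of DNA replication, and MYC proteins bind the E-box. The E2F motifs TTCCCGC and TTGGCGC and the E-box CACGTG, which do not overlap by sequence, were searched on both strands in the 300 bases from 250 before to 50 after each start. Of the 42 genes, 34 matched the RefSeq promoter table, with 42 windows. An E2F motif was present in 7 of these windows (16.7%), against 6.81% of 32851 windows, in Asxl1, Arid1a, Ezh2, Dnmt1, Smarcb1, Suz12 and Uhrf1. The E-box was present in 5 windows (11.9%), against 7.15%, in Bmi1, Sirt1, Dnmt3a, Pbrm1 and Bap1. As printed above, the Uhrf1 stretch holds the first E2F motif. The 7 genes with an E2F motif had a median slope of 0.26 on the proliferation score, from -0.25 to 0.93, and 6 of the 7 slopes were positive. The other 27 genes had a median of -0.11, with 9 positive. These shares and medians are descriptions without a test, and a match is not a bound site. The 32851 windows were not restricted to genes above the median probe set, where all 42 members stood.

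A wider list of chromatin genes was set beside the members. Of 129 genes on it, 117 were measured and 5 were called by limma (4.27%), near the 4.63% of all probe sets. The median difference was -0.05. Chd5, a neuronal CHD remodeler, was lower in the pancreatic tumors, at 5.37 to 6.15 with a median of 5.73, than in the pituitary tumors, which had 8.74, 8.25 and 7.95. The groups lay far apart, with a difference of -2.59 (limma adjusted p = 9.64e-06).

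Smarcd3, a SWI/SNF subunit of muscle and neurons, was 5.06 to 6.25 in the pancreatic tumors, against 8.44, 6.80 and 8.48 in the pituitary tumors, lower without overlap (difference -2.40, limma adjusted p = 0.00224). Pituitary tumors 6 and 8, the highest for Smarcd3, were also those with the highest glial and neuronal means. The part of glial and neuronal cells in this difference was not tested. Without tumors 6 and 8, which leaves tumor 7 as the only pituitary tumor, the difference was -1.29. Dnmt3l, a cofactor of DNA methyltransferases without activity of its own, was 3.95 to 4.79 in the pancreatic tumors, below the array medians, against 5.96, 6.43 and 5.04 in the pituitary tumors (difference -1.31, limma adjusted p = 0.0106). Without tumor 6 its adjusted p was 0.0723.

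The genes called higher were Hdac6 and Smarce1. Hdac6, a mainly cytoplasmic deacetylase that acts on tubulin, was 8.45 to 10.82 in the pancreatic tumors with a median of 10.37, against 8.39, 8.22 and 8.33 in the pituitary tumors (difference 1.77, limma adjusted p = 0.0388). The call was lost in 10 of the 12 fits that left out 1 tumor, with adjusted p up to 0.150, and without tumors 10, 11 and 12 (difference 1.55, limma adjusted p = 0.163). Smarce1, a SWI/SNF subunit, was 8.34 to 9.49 in the pancreatic tumors, against 7.44, 8.32 and 7.43 in the pituitary tumors (difference 1.29, limma adjusted p = 0.0252). Without tumor 6 or without tumor 8 its adjusted p was 0.153 and 0.149, without tumors 10, 11 and 12 it was 0.113, and the mean of all its probe sets gave a difference of 0.51 (limma adjusted p = 0.112).

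On the proliferation score, 1 of the 117 measured genes of the wider list had a slope that passed, against 0.156% of 45004 probe sets. This was Phf10, a subunit of a SWI/SNF complex of progenitor cells (slope 0.91, limma adjusted p = 0.0221). The call was lost in 4 of the 9 fits that left out 1 tumor, with adjusted p up to 0.139, while the slope ran from 0.85 to 1.01. Without tumors 5 and 10 the adjusted p was 0.449, and in that setting 0 of all 45004 probe sets were called.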

How the data were processed

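RNA of 9 pancreatic and 3 pituitary tumors had been hybridized to Affymetrix mouse arrays. The authors deposited 1 normalized log2 signal for each probe set and tumor. Partek Genomics Suite and RMA are both named in the methods, which do not state the source of these values, and they were used unchanged. From 45101 probe sets 64 controls were removed. Of the other 45037, 34945 have 1 symbol in the platform annotation, 932 several and 9160 none in the table used, and 34741 matched a RefSeq gene with 0 symbols changed. The members and lists were chosen with earlier results of these data known.

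Sites were compared by limma 3.58.1 (lmFit, eBayes; R 4.3.3), and slopes on the proliferation score were fitted likewise in the pancreatic tumors. Both were adjusted after Benjamini-Hochberg over all probe sets. The replicates are separate tumors, and their number limits the precision. Values were to be given in full for members called, without overlap, with a tumor past Dixon's limit, or among the 4 with the highest SD, and for called genes of the wider list. Other normalizations (quantile, median centring), array weights, an unmoderated variance, averages over all probe sets per gene, and fits without certain tumors served as alternatives. In a simulation of 45037 probe sets with 50 changed at each log2 difference, the site test recovered 0 at 0.5, 20 at 1, 31 at 2 and 47 at 4, with 5 false calls. Far fewer probe sets were changed there than the 2085 called in the data, and its noise was independent between probe sets. The adjusted threshold was therefore stricter in the simulation, and its recovery does not carry over directly to the data. Promoters came from RefSeq on GRCm38.p6. Python 3.11.15 and pandas 2.3.3 were used.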

Additional observations from a re-analysis of the deposited data

Results flagged for a closer look

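In 7 of the 42 members, 1 of the 9 pancreatic tumors stood apart by Dixon's test, in which the gap to the nearest tumor is divided by the range and the limit for 9 samples is 0.493. By chance about 1 in 20 groups is flagged. In these data 16.8% of the genes above the median probe set passed, against 16.7% of the members. Pancreatic tumor 2 was low for Smarca4 (ratio 0.758) and Kmt2d (0.568) and high for Dnmt3b (0.628). Pancreatic tumor 5 was high for Smarcc1 (0.612) and Chd7 (0.693) and low for Eed (0.538). Pancreatic tumor 1 was high for Tet2 (0.575). These flags rest on the representative probe sets. On further probe sets, tumor 2 was again highest for Dnmt3b (7.17) and tumor 5 for Chd7 (8.21) among the pancreatic tumors. For Tet2 tumor 5 was highest (9.15), and tumor 2 was not lowest for Kmt2d (6.53). Tumor 2 was again lowest for Smarca4 (7.68), but tumor 5 stood high (10.37). Further Smarcc1 probe sets were highest in tumor 2 (4.85), 4 (8.31) or 5 (9.86). A dim Eed probe set was highest in tumor 5 (4.17).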

How the results depend on the processing

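The count of members called by limma was 0 in each direction in all 12 fits without 1 tumor. Under array weights it was 1 higher (Hdac1, 0.88). In that setting 1849 of all 45037 probe sets were called higher and 3179 lower, against 533 and 1552 in the main fit. Of the wider list, 2 higher and 3 lower genes were called. Higher calls numbered 7 under array weights and 0 with an unmoderated variance. They numbered 1 without pancreatic tumors 10, 11 and 12 (Hells, with both Hdac6 and Smarce1 lost) and 0 to 3 with 1 tumor left out. Lower calls numbered 6 under array weights and 2 to 7 with 1 tumor left out. Slopes of members gave 0 calls in all 9 fits without 1 tumor.

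Over all 42 members, between 0 and 7 differences and between 0 and 9 slopes changed sign in a given setting, none of them past the threshold, and the cause was not tested. Values follow for the 12 members described most fully. For Cbx7 (-0.17) they were 0.37 with the mean of all probe sets, 0.14 without pancreatic tumors 2, 3 and 4, and 0.26 without pituitary tumors 6 and 8. For Eed (-0.13) they were 0.00094 after quantile normalization, 0.13 under array weights, 0.022 with the mean of all probe sets, and -0.23 to 0.082 with 1 tumor left out. Without pituitary tumors 6 and 8, Chd7 (-0.27) was 0.014, Kmt2d (0.08) was -0.083 and Smarcc1 (0.16) was -0.21. Without pancreatic tumors 10, 11 and 12, Ezh2 (-0.36) was 0.18 and Kmt2d -0.053, and Suz12, Jarid2, Smarcb1, Kmt2b and Kdm5a changed sign as well. With 1 tumor left out, Chd7 ran from -0.90 to 0.49, Kmt2d from -0.031 to 0.25 and Smarcc1 from -0.023 to 0.35.

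Among the same 12 members, slopes that changed sign were those of Cbx7 (-0.09; 0.00012 after quantile normalization, 0.0071 after median centring, 0.066 with a term for tumors 10, 11 and 12), Kmt2c (-0.31; 0.047 with Mki67) and Ring1 (-0.12; 0.022 without tumors 10, 11 and 12). With 1 tumor left out, slopes ran from -0.55 to 0.12 for Cbx7, -0.12 to 0.24 for Dnmt3b, -0.81 to 0.13 for Kmt2c, -0.37 to 0.094 for Ring1, -0.12 to 0.023 for Smarca4 and -0.25 to 0.059 for Tet2. No paired analysis was possible because the mouse of each tumor is not given.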
